A study of Homo sapiens with 12 samples.

Results

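Aminoacyl-tRNA synthetases attach each amino acid to its own tRNAs and so supply translation. Most amino acids have a cytosolic enzyme and a separate nuclear-encoded enzyme that is imported into mitochondria, where it charges tRNAs made from the mitochondrial genome. Many of the cytosolic genes are targets of ATF4, which cells make under the integrated stress response, for instance when amino acids run short. Described here are 35 synthetase genes chosen by symbol, 19 cytosolic and 16 mitochondrial, of 62262 genes in the deposited table and 19784 tested. All 35 were found and all 35 passed the filter on low counts.

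The cells were a conditionally immortalized human podocyte line, differentiated at the temperature that inactivates its temperature-sensitive SV40 T antigen. Podocytes are the epithelial cells that wrap the glomerular capillaries of the kidney. The 4 groups were cyclosporine A (CSA), tacrolimus (TAC) and voclosporin (VCS), each at 100 nM for 24 h, and DMSO, with 3 libraries each. All 3 agents inhibit calcineurin; VCS is CSA with a modified side chain, and TAC is a macrolide of another chemical class. The groups share 1 cell line, and the sources used here do not say whether replicates were separate cultures, so p-values measure the spread between libraries, which may be technical. In bulk RNA, fewer cells of a type and less RNA per cell cannot be told apart.

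Library totals ran from 28808213 to 36077072 expected counts. The cytosolic genes had 1271 to 10394 counts per library and the mitochondrial genes 77 to 3176. Of 12 podocyte markers 9 were tested: ACTN4 averaged 1430 ± 66.5 CPM (counts scaled to library size) and SYNPO 46.3 ± 5.38 CPM in DMSO (SD, n = 3), while NPHS1, which encodes nephrin of the slit diaphragm, had 1 to 11 counts per library. NPHS1 was thus near 0, and the label rests on genes such as ACTN4 and SYNPO, which other cells also express. Summed markers of mesangial cells and fibroblasts, which include collagens, reached 3890 to 5680 CPM in CSA, 3740 to 3980 in TAC, 3860 to 4080 in VCS and 3470 to 4150 in DMSO. Summed leukocyte markers lay between 56.6 and 90.3 CPM and endothelial markers between 2.33 and 10.4 CPM over all libraries. Summed airway markers reached 15.7 to 23.3 CPM in CSA, 19.5 to 23.2 in TAC, 26.5 to 36.9 in VCS and 17.4 to 26.8 in DMSO, and basal epithelial markers 6.9 to 9.36, 10.2 to 11.1, 12.2 to 35.2 and 13.9 to 30.1 CPM. The airway sum holds members on both sides of DMSO: the surfactant gene SFTPA1 fell in CSA (0.201 CPM, adjusted p = 0.0258, edgeR) and in TAC (0.171 CPM, adjusted p = 0.0143), against 3.72 CPM in DMSO, while SFTPB was at 13.9 CPM in CSA and 14.3 in TAC, against 8.15 in DMSO. Summed hepatocyte markers reached 201 to 386 CPM in CSA, 343 to 397 in TAC, 201 to 389 in VCS and 209 to 263 in DMSO. The part of any of these cells in the synthetase values was not tested.

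The promoters of these genes are shown first because a short element of ATF4 targets occurs in several of them. The C/EBP-ATF response element, through which ATF4 acts with a C/EBP partner, has the core TGATGNAA. RefSeq promoter windows on GRCh38.p14, reaching 250 bases before and 50 bases after each annotated start, were found for 30 of the 35 genes: 16 cytosolic and 14 mitochondrial. AARS2, LARS1, VARS1, VARS2 and YARS1 were not among them. On either strand, 7 of the 16 cytosolic genes held the core (43.8%), against 1 of the 14 mitochondrial genes (7.14%) and 4.46% of 27305 genes in the table. The 28 bases around each match follow, in the direction of the gene, with the matched letters in capitals.

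AARS1: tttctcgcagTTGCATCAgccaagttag
CARS1: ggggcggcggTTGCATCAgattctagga
GARS1: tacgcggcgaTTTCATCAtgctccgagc
IARS1: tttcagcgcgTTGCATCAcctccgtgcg
MARS1: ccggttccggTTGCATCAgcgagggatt
NARS1: ctacgctctcTGATGCAAcgccggaatc
TARS1: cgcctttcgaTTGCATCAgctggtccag
YARS2: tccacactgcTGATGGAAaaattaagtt

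In AARS1, CARS1, IARS1, MARS1 and TARS1 the same 8 letters TTGCATCA occur, the reverse complement of the TGATGCAA seen in NARS1. The AARS1 match lies from -187 to -180 before the start (chr16:70289676-70289703 for the stretch printed, minus strand). Those of CARS1 (chr11:3057408-3057435, minus strand) and MARS1 (chr12:57488054-57488081, plus strand) span the start, from -2 to 6 and from -4 to 4. Those of IARS1 (chr9:92293693-92293720, minus strand) and GARS1 (chr7:30594835-30594862, plus strand) lie from -13 to -6 and from -33 to -26. TARS1 (chr5:33440957-33440984, plus strand) and NARS1 (chr18:57621805-57621832, minus strand) hold it just after the start, at 3 to 10 and 15 to 22. The YARS2 match (chr12:32756077-32756104, minus strand) is farthest away, at -197 to -190. A match is a run of letters and does not show that a factor binds there.

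Other elements were searched in the same windows. The ETS core CCGGAAGT was in 31.2% of the cytosolic genes, 21.4% of the mitochondrial genes and 4.95% of all genes, and the NF-Y box CCAAT in 43.8%, 64.3% and 39.7%. HARS1 and HARS2, which lie head to head, both held the ETS core. Its places were -84 to -77 and -9 to -2 in HARS1, and -83 to -76 and -8 to -1 in HARS2. These may be the same sites, counted in both compartments. The STAT core TTCNNNGAA was in 3 cytosolic genes, among them WARS1, and in 2 mitochondrial genes, with 9.38% of all genes holding it. The CRE, TGACGTCA, was in none of the 30 genes, and the NRF1 core was in MARS2 alone.

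Cytosolic synthetases were the more abundant mRNAs. As a level per kb of the principal transcript, averaged over the 12 libraries, they ran from 14.9 CPM per kb for FARSB, a subunit of the phenylalanyl enzyme, to 88.2 for SARS1, the seryl enzyme, with a median of 47.5. The mitochondrial enzymes ran from 1.45 for PARS2, the prolyl enzyme, to 33.4 for RARS2, the arginyl enzyme, with a median of 7.76. RARS2, CARS2 (26.8) and IARS2 (23.3) were the mitochondrial genes whose levels reached into the cytosolic range, as did HARS2 (15.9) just above FARSB. With the length of all annotated exons in place of the principal transcript, the medians were 31.4 and 4.63 CPM per kb, and the genes that overlap in level were others. CARS1 was then the lowest cytosolic gene (5.64), CARS2 lay below it (4.82), and SARS2 (5.65), TARS2 (6.35), YARS2 (6.55) and AARS2 (11.9) joined RARS2, IARS2 and HARS2 in the cytosolic range.

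Neighbours in that order mostly lay within their spread. By principal transcript SARS1 was at the top (78.3 ± 8.45 CPM per kb in DMSO), and behind it GARS1, NARS1, RARS1, IARS1, TARS1 and QARS1 lay between 55.5 and 60.5 over all libraries, with SDs of 2.93 to 8.49. With all annotated exons as the length SARS1 (42.6) lay between NARS1 (44.4) and TARS1 (42). KARS1 and GARS1, single genes that encode both the cytosolic and the mitochondrial form of the lysyl and glycyl enzymes, stood at 49.3 and 60.5. FARSA and FARSB encode the 2 kinds of subunit of 1 enzyme, yet their levels were 42.1 ± 4.1 and 14.9 ± 1.64 (SD over 12 libraries). Across same-amino-acid pairs the cytosolic gene was 1.73 times (RARS1 over RARS2) to 25.2 times (EPRS1 over PARS2) as high per kb, except for cysteine, where CARS1 stood at 0.786 of CARS2. With all annotated exons as the length that exception turned, CARS1 standing at 1.17 times CARS2, and the cytosolic gene was the higher in all 16 pairings.

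**Figure D1:**
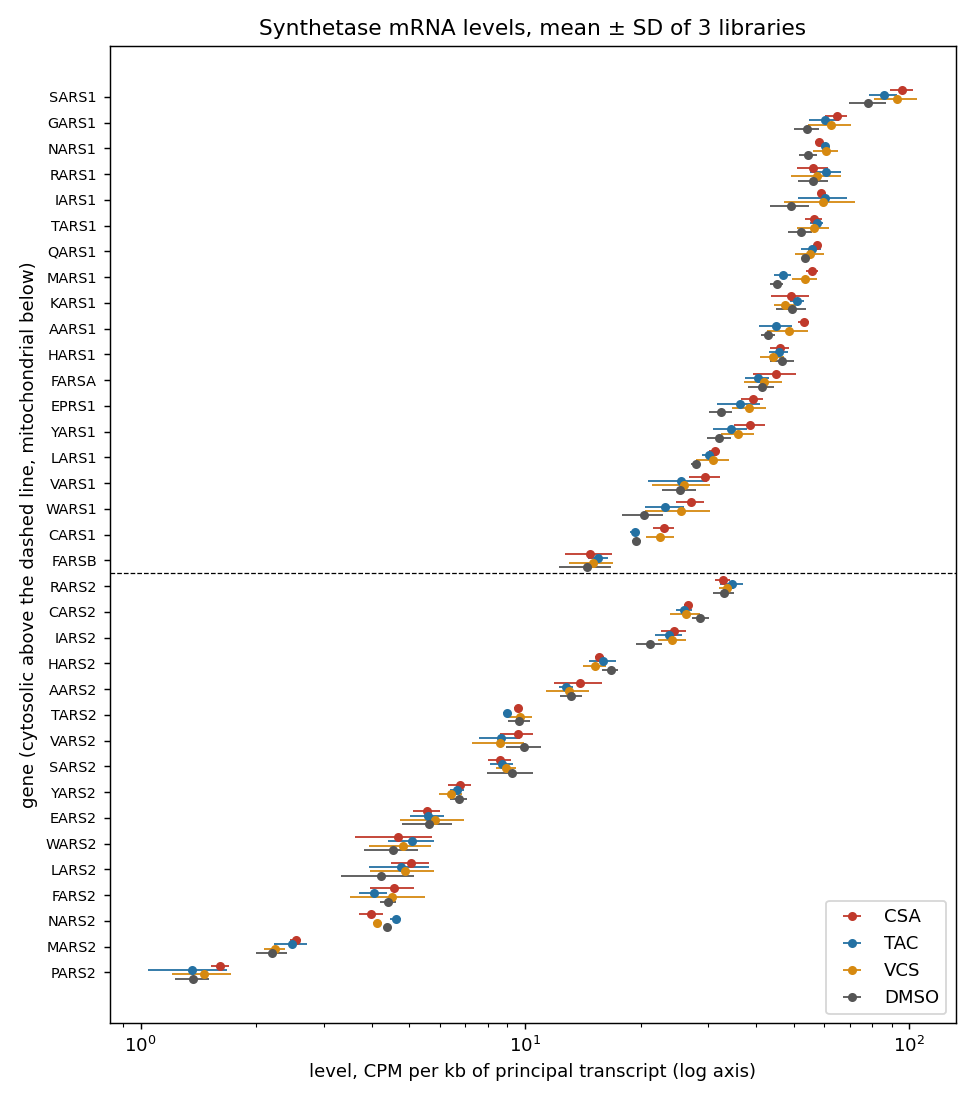
Levels of the 35 synthetase mRNAs in CPM per kb of principal transcript (log axis), as mean ± SD of 3 libraries per group, with CSA, TAC, VCS and DMSO as coloured points and the genes ordered within each compartment. Cytosolic genes run from 14.9 (FARSB) to 88.2 (SARS1) and mitochondrial genes from 1.45 (PARS2) to 33.4 (RARS2), averaged over 12 libraries.

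Summed over the 19 cytosolic genes, the level was 2763.4 ± 91.2 CPM in CSA, 2622.7 ± 198 in TAC, 2687.9 ± 294 in VCS and 2423.8 ± 152 in DMSO (SD, n = 3 each). The 16 mitochondrial genes summed to 474.7 ± 5.18 CPM in CSA, 465.4 ± 8.99 in TAC, 466.3 ± 8.03 in VCS and 465 ± 2.93 in DMSO. The cytosolic sums of the 3 CSA libraries all lay above those of the 3 DMSO libraries, while TAC and VCS overlapped DMSO. The mitochondrial sums of all 12 libraries lay between 459.5 and 479.8 CPM.

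A score per compartment, the mean log2 CPM of its genes in a library, gave every gene the same weight. The cytosolic score was 7.093, 7.091 and 6.984 in CSA, 6.986, 7.063 and 6.854 in TAC, 7.005, 7.158 and 6.851 in VCS, and 6.911, 6.946 and 6.766 in DMSO, in the order of the library numbers. All CSA libraries were above all DMSO libraries, and the library numbered 3 was the lowest of every group. The mitochondrial score was 4.456, 4.443 and 4.396 in CSA, 4.380, 4.463 and 4.351 in TAC, 4.400, 4.463 and 4.325 in VCS, and 4.408, 4.424 and 4.359 in DMSO. Here the groups overlapped throughout.

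The cytosolic score minus the mitochondrial score was 2.624 ± 0.032 in CSA, 2.570 ± 0.058 in TAC, 2.609 ± 0.084 in VCS and 2.478 ± 0.062 in DMSO. It was between 2.588 and 2.648 in CSA and between 2.407 and 2.523 in DMSO, with no overlap. In VCS the lowest library, at 2.527, lay just above the highest of DMSO, and in TAC the lowest, at 2.503, lay below it. Between libraries of the same number the difference exceeded that of DMSO by 0.133, 0.125 and 0.181 in CSA, by 0.103, 0.077 and 0.096 in TAC, and by 0.102, 0.172 and 0.120 in VCS. Library numbers were not taken as pairing VCS with DMSO. No p-value is given for a score, since the genes were chosen with earlier results of these data known.

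**Figure D2:**
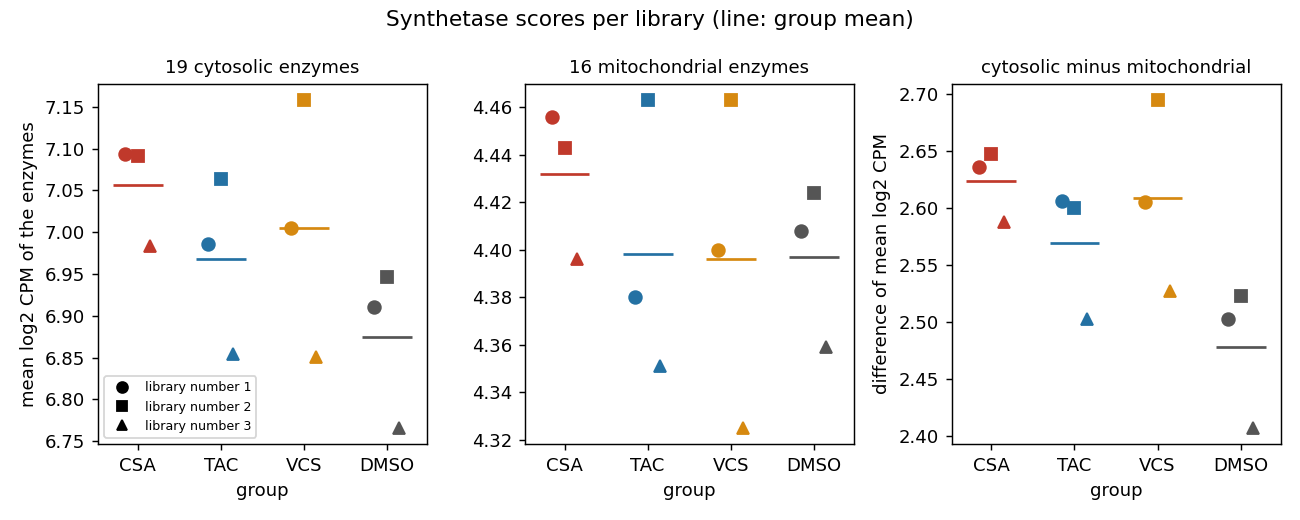
Mean log2 CPM of the 19 cytosolic enzymes, of the 16 mitochondrial enzymes, and the difference between them, for each of 12 libraries by group; symbols mark the library number and lines the group mean. The difference is between 2.588 and 2.648 in CSA and between 2.407 and 2.523 in DMSO, and the triangle of library 3 is the lowest of the 3 in every group.

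The libraries numbered 3 stood apart, for the cytosolic genes and over all genes. Library 3 was the lowest of its group for 13 of 19 cytosolic genes in CSA, 16 in TAC, 16 in VCS and 17 in DMSO, and for 7, 6, 9 and 8 of the 16 mitochondrial genes. Over the 19784 genes tested it was the lowest for 7198 in CSA (36.4%), 7614 in TAC (38.5%), 7769 in VCS (39.3%) and 6935 in DMSO (35.1%). It was the highest for more of them, 7797, 7857, 7942 and 7150, so those genes as a whole were not lower in it. Chi-square distances per gene to library 3 were 39 to 55.5 in CSA, 32.2 to 44.9 in TAC, 79 to 88.8 in VCS and 19.2 to 34 in DMSO, against 15.2, 8.81, 11.7 and 16.2 between the other libraries of each group. These libraries also had the largest share of transcripts from the mitochondrial genome: 9.68% in CSA, 10.1% in TAC, 13.4% in VCS and 10.8% in DMSO, against 5.82 to 8.12% in the other 8. The part of that share in the cytosolic values was not tested. Without the 4 libraries numbered 3 the median log2 fold change of the cytosolic genes against DMSO was 0.17 for CSA, 0.11 for TAC and 0.16 for VCS.

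Cyclosporine A was set against its vehicle to see how transcript levels respond at this dose. The synthetase genes with the largest values were WARS1, MARS1, AARS1, SARS1 and EPRS1, each 1.21 to 1.32 times as high in CSA. The mitochondrial genes ran from -0.14 to 0.26 in log2 fold change. None of the 35 genes passed a Benjamini-Hochberg adjusted p of 0.05 in edgeR's quasi-likelihood test over all genes (smallest adjusted p 0.939), where 0.0101% of all genes passed. Of the cytosolic genes 16 of 19 had a log2 fold change above 0 (all genes: 49%), with a median of 0.22, against -0.004 over all genes tested. Of the mitochondrial genes 8 of 16 were above 0, with a median of 0.001. An unadjusted p under 0.05 was found for 8 of 19 cytosolic genes, all higher, and for none of the mitochondrial genes, where 2.05% of all genes had one and were higher and 1.7% had one and were lower. All CSA libraries lay above all DMSO libraries for 12 of 19 cytosolic and 3 of 16 mitochondrial genes, against 4.94% of all genes. Leaving out DMSO 3 brought the cytosolic median to 0.14 and the count of 8 to 2 (all genes: 1.14%). Leaving out CSA 1 (all genes: 2.3%) or CSA 2 (3.43%) brought the count to 4. With library number as a further term, 11 of 19 cytosolic and 2 of 16 mitochondrial genes had an unadjusted p under 0.05, all higher (edgeR). The smallest adjusted p over all synthetase genes was then 0.116 (edgeR). In that fit 6.49% of all genes had an unadjusted p under 0.05 and were higher, and 4.91% were lower.

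WARS1, the tryptophanyl enzyme (ENSG00000140105, chromosome 14, 100333788 to 100376805 on GRCh38), had 84.1, 90.4 and 76.2 CPM in CSA, against 66.7, 68.2 and 54.3 CPM in DMSO. The groups did not overlap, and number 3 was the lowest in each. Its log2 fold change of 0.40 (SE 0.14, adjusted p = 0.939, edgeR) was the highest of the 35. With library number as a further term, WARS1 reached an unadjusted p of 7.64e-05 by edgeR and an adjusted p of 0.116, the smallest adjusted p of any synthetase gene in that fit of CSA against DMSO.

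AARS1, the alanyl enzyme (ENSG00000090861, chromosome 16, 70252295 to 70289543), had 179, 185 and 191 CPM in CSA, against 149, 156 and 143 CPM in DMSO. MARS1, the methionyl enzyme of the multisynthetase complex (ENSG00000166986, chromosome 12, 57475445 to 57517569), had 163, 157 and 168 CPM in CSA, against 137, 128 and 129 CPM in DMSO. For both genes the CSA libraries lay close together and clear of DMSO, and CSA 3 was the highest library, unlike the group as a whole. The log2 fold changes were 0.31 (SE 0.10) for AARS1 and 0.31 (SE 0.09) for MARS1. MARS1 overlaps DDIT3, the stress-response factor gene CHOP, on the other strand, and the sources used here do not say whether the counting used strand. DDIT3 itself averaged 14.4 ± 0.367 CPM in CSA libraries and 14.3 ± 1.44 CPM in DMSO libraries.

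CARS1, the cysteinyl enzyme, had 58.5, 60.7 and 66.3 CPM in CSA, against 53.1, 53.4 and 50.8 CPM in DMSO, and a log2 fold change of 0.24 (SE 0.09). Its CSA libraries lay above all DMSO libraries. GARS1 had 169, 183 and 160 CPM in CSA, against 149, 149 and 130 CPM in DMSO (log2 0.25, SE 0.11). EPRS1, which joins the glutamyl and prolyl enzymes in 1 protein, had 206, 182 and 200 CPM in CSA, against 173, 163 and 151 CPM in DMSO (log2 0.27, SE 0.11). In both genes every CSA library again exceeded every DMSO library. SARS1 had 187, 182 and 163 CPM in CSA, against 159, 148 and 128 CPM in DMSO (log2 0.29, SE 0.12). YARS1, the tyrosyl enzyme, had 130, 132 and 112 CPM in CSA, against 106, 109 and 95.1 CPM in DMSO (log2 0.27, SE 0.11). These 2 complete the 8 genes with an unadjusted p under 0.05 in the fit without library number, and neither overlapped DMSO. IARS1, the isoleucyl enzyme and the most abundant of the 35 before division by length, had 280, 271 and 272 CPM in CSA, against 255, 229 and 202 CPM in DMSO (log2 0.26, SE 0.15).

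Cytosolic genes with values near 0 in CSA were KARS1, RARS1, HARS1 and FARSB. KARS1 had 105, 105 and 85.9 CPM in CSA, against 97.4, 108 and 91 CPM in DMSO, and the groups overlapped (log2 -0.003, 95% interval -0.22 to 0.22). HARS1, the histidyl enzyme, differed by -0.02 (95% interval -0.22 to 0.18). HARS1 and HARS2 lie head to head, and their 5′ ends overlap by 436 bp in the annotation. HARS2 differed by -0.09 (SE 0.09). Of the 7 enzymes of the multisynthetase complex, 5 were above 0 (median 0.17), and of the 12 others 11 were (median 0.23). The complex's scaffold genes AIMP1, AIMP2 and EEF1E1 had a median of -0.06, with AIMP1 at 71.2 ± 1.68 CPM in CSA and 74.2 ± 5.73 in DMSO.

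Among mitochondrial genes in CSA, LARS2 (0.26, SE 0.18), PARS2 (0.24, SE 0.20), IARS2 (0.21, SE 0.10) and MARS2 (0.21, SE 0.13) were highest. The libraries of IARS2, PARS2 and MARS2 did not overlap with DMSO. NARS2, the asparaginyl enzyme (-0.14, SE 0.10), and CARS2 (-0.11, SE 0.09) were lowest, and all CSA libraries of both lay below all DMSO libraries, as they did for 4.93% of all genes. IARS2 had 93.4, 80.4 and 87.2 CPM in CSA, against 79.1, 77.4 and 68.3 CPM in DMSO. CARS2 had 49.5, 51.1 and 48.8 CPM in CSA, against 52.9, 51.5 and 56.8 CPM in DMSO, so the 2 cysteinyl enzymes lay on opposite sides of DMSO.

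Grouped by the promoter element, the 7 cytosolic genes with a TGATGNAA match had log2 fold changes from 0.10 to 0.31 in CSA, with a median of 0.25. All CSA libraries lay above all DMSO libraries for 6 of them, against 4.94% of all genes. The 9 cytosolic genes whose windows held no match ran from -0.02 to 0.40, with a median of 0.11, and 4 of them lay above in all libraries. WARS1, the highest, was in the second set. The difference between the sets was not tested.

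**Figure D3:**
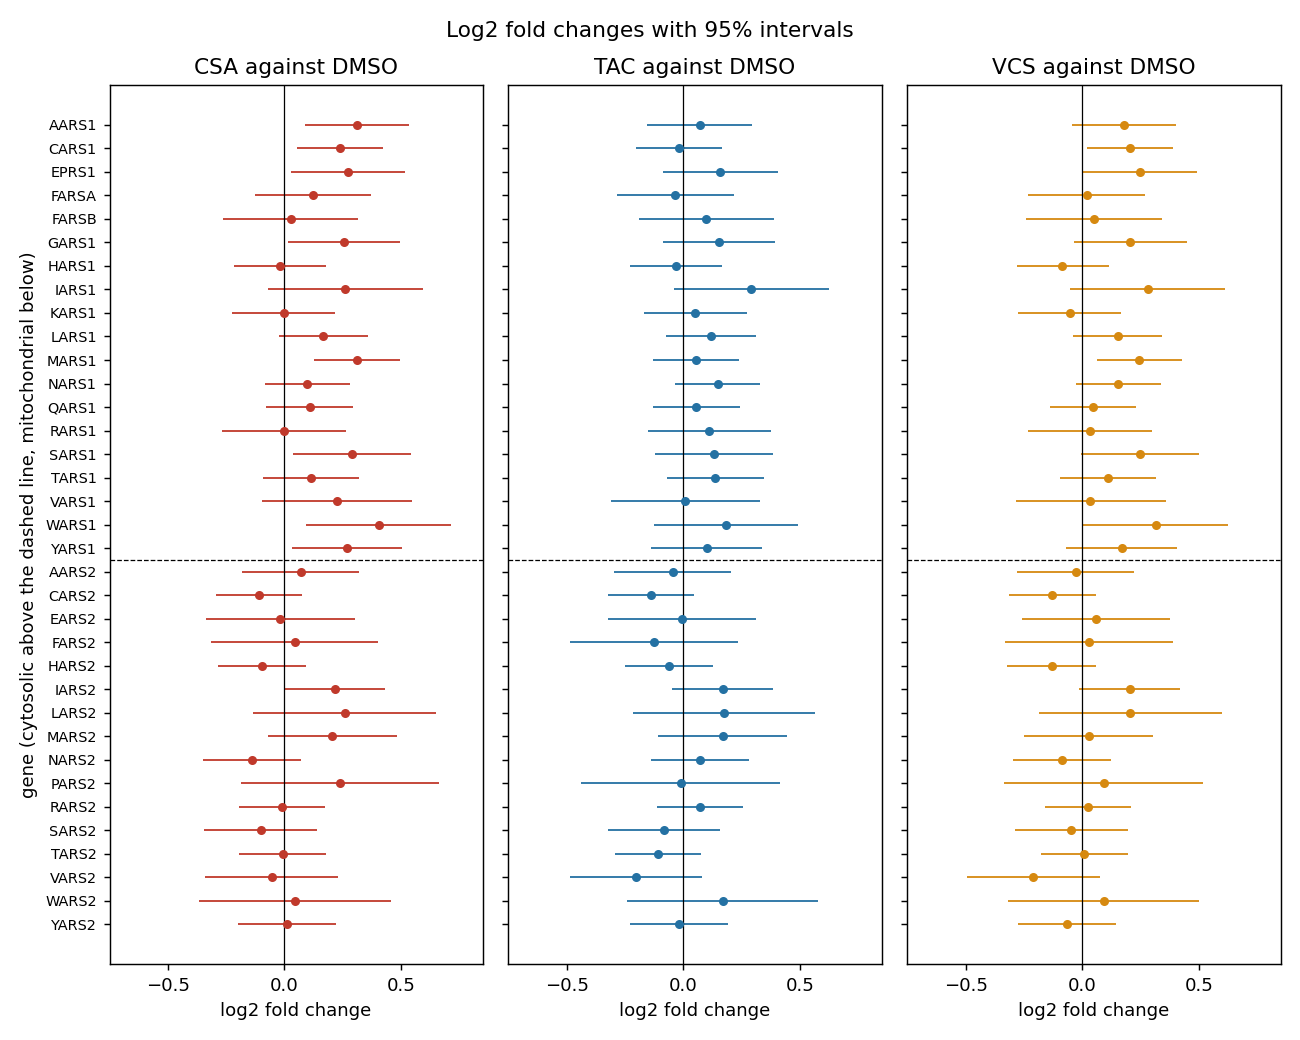
Log2 fold changes of the 35 synthetase genes against DMSO with 95% intervals from edgeR, in 3 panels for CSA, TAC and VCS, cytosolic genes above the dashed line. No gene passed the adjusted threshold; cytosolic medians are 0.22 in CSA, 0.10 in TAC and 0.15 in VCS, and mitochondrial medians 0.001, -0.01 and 0.02.

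Tacrolimus was set against the same vehicle. The cytosolic genes lay closer to DMSO: 16 of 19 were above 0 (all genes: 49%), with a median of 0.10 and a highest value of 0.29 in IARS1. No synthetase gene passed (smallest adjusted p 0.92, edgeR), where 0.0354% of all genes passed, and 0 of 35 had an unadjusted p under 0.05 (all genes: 2.25% higher and 2.4% lower). DESeq2 also called none. All TAC libraries lay above all DMSO libraries for 3 of 19 cytosolic genes, LARS1, NARS1 and TARS1, against 5.99% of all genes. Among mitochondrial genes, NARS2 lay above DMSO in all libraries, and CARS2 lay below it in all libraries, as 6.44% of all genes did. Of the mitochondrial genes 6 of 16 were above 0, with a median of -0.01. The cytosolic median was 0.04 without DMSO 3, 0.05 without TAC 2, and 0.15 without DMSO 2 or without TAC 3. With library number as a further term, 4 of 19 cytosolic genes had an unadjusted p under 0.05, all higher, and of the mitochondrial genes IARS2 was higher and VARS2 lower at that p (smallest adjusted p over all synthetase genes 0.282, edgeR). In that fit 6.38% of all genes had an unadjusted p under 0.05 and were higher, and 6.75% were lower.

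AARS1 had 159, 171 and 141 CPM in TAC, against 149, 156 and 143 CPM in DMSO, and the groups overlapped (log2 0.07, SE 0.10). WARS1 had 74.1, 78.4 and 62.4 CPM in TAC, against 66.7, 68.2 and 54.3 CPM in DMSO (log2 0.18, SE 0.14). IARS1 had 303, 305 and 233 CPM in TAC, against 255, 229 and 202 CPM in DMSO (log2 0.29, SE 0.15), and only the library numbered 3 lay within the range of DMSO. MARS1 (0.06, SE 0.09) and CARS1 (-0.02, SE 0.09), which were among the higher genes in CSA, lay near DMSO in TAC. GARS1 had 162, 171 and 143 CPM in TAC (log2 0.15, SE 0.11) and KARS1 103, 106 and 98.2 CPM (log2 0.05, SE 0.10). By promoter, the 7 genes with a TGATGNAA match ran from -0.02 to 0.29 in TAC, with a median of 0.14, and the 9 without one had a median of 0.10.

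Voclosporin was the third inhibitor set against the vehicle. Of the cytosolic genes 17 of 19 were above 0 (all genes: 50.9%), with a median of 0.15, and 4 had an unadjusted p under 0.05, all higher, against 1.53% of all genes: CARS1, EPRS1, MARS1 and WARS1. None had one and was lower (all genes: 1.74%). No synthetase gene passed (smallest adjusted p 0.963, edgeR), where 0.00505% of all genes passed. All VCS libraries lay above all DMSO libraries for 3 of 19 cytosolic genes, CARS1, MARS1 and NARS1, against 3.32% of all genes. Of the mitochondrial genes 9 of 16 were above 0, with a median of 0.02, and NARS2 lay below DMSO in all libraries (all genes: 4.16%). Over the fits that left out 1 library, the count of 4 ran from 0 without VCS 2, where 0.816% of all genes were higher at that p, to 8 without VCS 3, where 6.46% were. The cytosolic median was 0.08 without VCS 2.

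MARS1 had 154, 168 and 145 CPM in VCS, against 137, 128 and 129 CPM in DMSO (log2 0.24, SE 0.09). CARS1 had 55.4, 65.4 and 60.3 CPM in VCS, against 53.1, 53.4 and 50.8 CPM in DMSO (log2 0.20, SE 0.09). Both were clear of DMSO in all 3 libraries. WARS1 had 79.5, 93.2 and 62.7 CPM in VCS, against 66.7, 68.2 and 54.3 CPM in DMSO (log2 0.31, SE 0.14), and AARS1 had 170, 189 and 148 CPM (log2 0.18, SE 0.10). In both genes VCS 3 lay within the range of DMSO and VCS 2 was the highest library of the group. EPRS1 had 199, 208 and 171 CPM in VCS (log2 0.25, SE 0.11), where VCS 3 lay below DMSO 1. GARS1 (0.21, SE 0.11) and KARS1 (-0.05, SE 0.10) did not separate from DMSO either. By promoter, the 7 genes with a TGATGNAA match had a median of 0.20 in VCS and the 9 without one a median of 0.04.

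**Figure D4:**
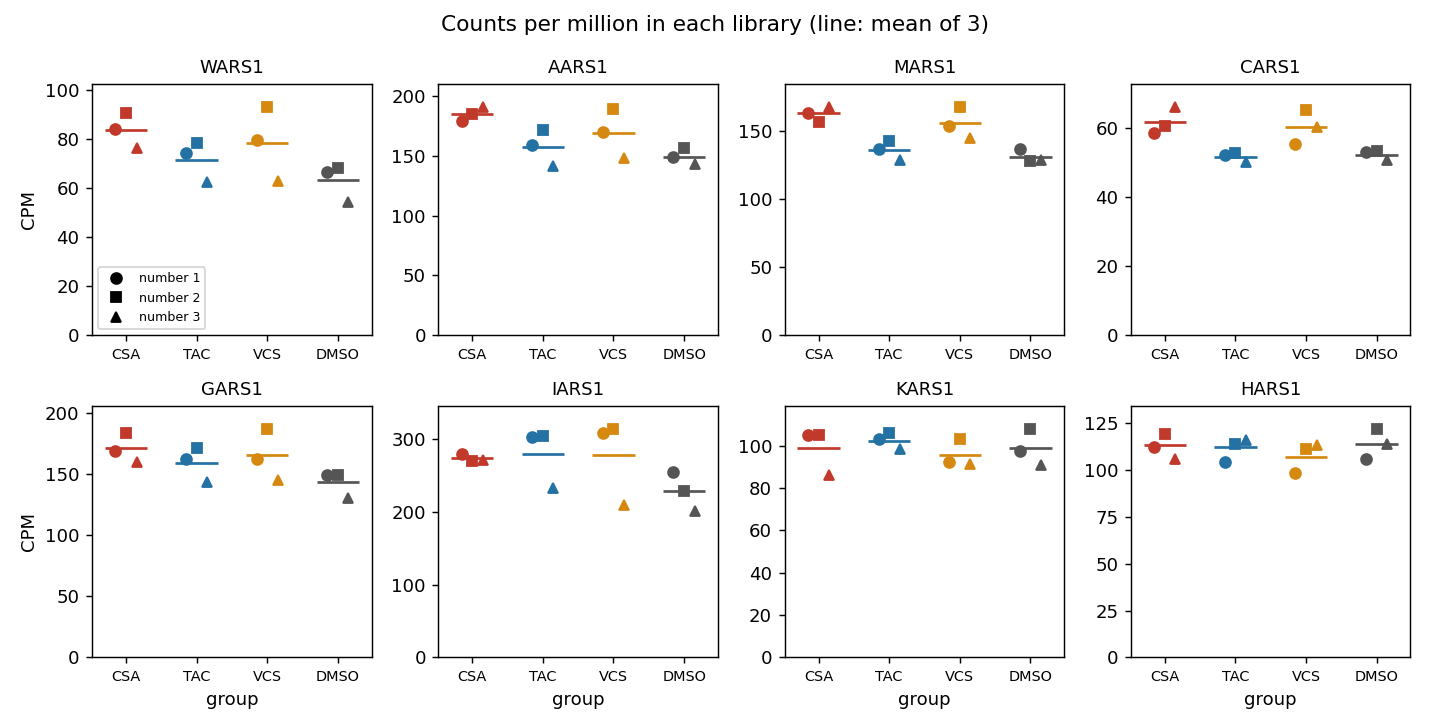
CPM of WARS1, AARS1, MARS1, CARS1, GARS1, IARS1, KARS1 and HARS1 in each library, with symbols for the library number and a line at the mean of 3, on axes that start at 0. In MARS1 and CARS1 the CSA and VCS libraries all lie above the DMSO libraries, and in KARS1 and HARS1 the 4 groups overlap.

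Between inhibitors at the same dose and time, 3 pairs were compared, each over all genes, and no synthetase gene passed in any. In CSA against TAC, where 0.0303% of all genes passed, 13 of 19 cytosolic genes were above 0 (all genes: 49.4%) and 3 cytosolic genes had an unadjusted p under 0.05 and were higher in CSA, against 4.34% of all genes. None was lower at that p (all genes: 3.18%). CARS1 had 58.5, 60.7 and 66.3 CPM in CSA, against 52.3, 52.7 and 50.2 CPM in TAC (log2 0.26, 95% interval 0.07 to 0.44, adjusted p = 0.538, edgeR). MARS1 differed by 0.26 (95% interval 0.07 to 0.44, adjusted p = 0.538, edgeR) and AARS1 by 0.24 (0.02 to 0.46, adjusted p = 0.634, edgeR). All CSA libraries lay above all TAC libraries for these 3 genes and TARS2, the mitochondrial threonyl enzyme, against 6.84% of all genes, and below for NARS2, against 6.74%. The median over the cytosolic genes was 0.10, and over the mitochondrial genes 0.03. The cytosolic median was 0.03 without TAC 3 and 0.16 without TAC 2.

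In TAC against VCS, where 0.0253% of all genes passed, the same CARS1 and MARS1 were lower in TAC, the only 2 synthetase genes with an unadjusted p under 0.05 in that pair (all genes: 2.02% lower and 1.61% higher). Neither kept such a p without TAC 3 or without VCS 2. CARS1 had 52.3, 52.7 and 50.2 CPM in TAC, against 55.4, 65.4 and 60.3 CPM in VCS (log2 -0.22, 95% interval -0.41 to -0.04, adjusted p = 1, edgeR). MARS1 had 137, 143 and 129 CPM in TAC, against 154, 168 and 145 CPM in VCS (log2 -0.19, 95% interval -0.37 to -0.01, adjusted p = 1, edgeR). The groups did not overlap for either gene, as for 4.65% of all genes in that direction, and NARS2 lay above in all libraries, as for 4.12%. Of the cytosolic genes 7 of 19 were above 0 (all genes: 49%), with a median of -0.03, which was 0.05 without VCS 2, 0.01 without TAC 3, -0.10 without TAC 2 and -0.14 without VCS 3. The 2 comparisons share the TAC libraries. With library number as a further term, the unadjusted p in TAC against VCS was 0.00999 for CARS1 and 0.022 for MARS1 (edgeR). The adjusted p were 0.432 and 0.534 (edgeR). In that fit 4.43% of all genes had an unadjusted p under 0.05 and were lower, and 3.45% were higher.

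Between CSA and its analog VCS, where 0.0101% of all genes passed, none of the 35 had an unadjusted p under 0.05 (all genes: 1.23% higher and 1.31% lower) or an adjusted p under 1 in edgeR. MARS2 alone lay above VCS in all libraries (all genes: 3.04%), and none lay below (2.82%). Of the cytosolic genes 15 of 19 were above 0 (all genes: 49.1%), with a median of 0.05, which was 0.11 without VCS 2, 0.08 without CSA 3 and -0.03 without VCS 3. For WARS1 the difference was 0.09 (95% interval -0.22 to 0.40), for AARS1 0.13 (-0.09 to 0.35), for MARS1 0.07 (-0.12 to 0.25) and for CARS1 0.03 (-0.15 to 0.22). For AARS1 the interval holds a difference as large as that between CSA and DMSO, and the intervals do not show that the analogs act alike.

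Within same-amino-acid pairs, the log2 ratio of the cytosolic to the mitochondrial gene was set against DMSO. Of 16 pairings, in which EPRS1 stands for both of its amino acids, 15 were above 0 in CSA (median 0.18), 14 in TAC (median 0.11) and 14 in VCS (median 0.20). For the cysteinyl pair the ratio was 0.310 ± 0.113 in CSA, 0.087 ± 0.100 in TAC, 0.296 ± 0.147 in VCS and -0.035 ± 0.113 in DMSO (SD, n = 3 each). For the tryptophanyl pair it was 2.698 ± 0.242 in CSA, 2.331 ± 0.085 in TAC, 2.538 ± 0.097 in VCS and 2.321 ± 0.100 in DMSO. For both pairs CSA and VCS lay wholly above DMSO. The two-sided exact permutation p of 3 against 3 libraries was 0.1 there, the smallest that this design allows, so no pairing could pass a threshold of 0.05. The leucyl pair lay on the other side of DMSO, at -0.11 in CSA, -0.06 in TAC and -0.06 for VCS, and the methionyl pair did so in TAC, at -0.11, all with overlapping libraries.

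Other genes of the pathway were read from lists of related functions. Of 28 ATF4 target genes that are not synthetases, none passed, and 26 were above 0 in CSA (median 0.20), 17 in TAC (median 0.08) and 26 in VCS (median 0.17). SLC7A5, which carries large neutral amino acids, differed by 0.44 in CSA (SE 0.11), the glutamine transporter SLC1A5 by 0.34 (SE 0.09), and ASNS, asparagine synthetase, by 0.41 in CSA (SE 0.20), 0.11 in TAC (SE 0.20) and 0.34 in VCS (SE 0.20). The direction of these genes in CSA and VCS was known from earlier results and is not independent of the synthetase values. ATF4 mRNA was at 224 ± 35.8 CPM in CSA, 225 ± 5.77 in TAC, 228 ± 1.89 in VCS and 213 ± 13.5 in DMSO.

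Genes of mitochondrial translation had medians near DMSO in CSA and VCS, as the mitochondrial synthetases did. The 13 translation and transcription factors of the mitochondrion had medians of -0.003 in CSA, 0.07 in TAC and 0.03 in VCS, and the 8 genes that complete mitochondrial tRNAs had -0.02, 0.02 and -0.04. Of the 13 factors 6 were above 0 in CSA, 11 in TAC and 7 in VCS. In TAC 6 of 16 mitochondrial and 16 of 19 cytosolic synthetases were above 0 (all genes: 49%). The 5 cytosolic elongation factors had 0.13, 0.14 and 0.14, and 10 genes that export, edit or complete tRNAs had 0.04, 0.02 and 0.03. None of these genes passed in any comparison with DMSO.

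WARS1 is known as an interferon gamma-induced gene as well as an ATF4 target. The 14 tested interferon gamma targets lay mostly below DMSO, with medians of -0.17 in CSA, -0.28 in TAC and -0.10 in VCS, and 3, 2 and 3 of them above 0. None passed. NLRC5, an activator of class I antigen presentation genes, differed by -0.24 in CSA, -0.35 in TAC and -0.24 in VCS (SE 0.09 each). The WARS1 values were 0.40, 0.18 and 0.31. The part of interferon gamma or of ATF4 in them was not tested.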

How the data were processed

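Poly(A) RNA was measured in 12 libraries. Per the labels, ERCC RNAs were added and reads carried UMIs; the sources used here do not say whether UMIs were collapsed, so counts may hold PCR copies. The deposited values are expected counts per Ensembl gene, given as whole numbers and not scaled; Salmon and GRCh38 are named per the submitters' processing notes. Symbols were found for 62252 of 62262 identifiers, and positions and transcript lengths came from GENCODE 29 on GRCh38. Genes were filtered with filterByExpr (minimum count 10), scaled by TMM and fitted with edgeR 4.0.16 in R 4.3.3 (quasi-likelihood, group as the only term, 12 libraries, two-sided), with Benjamini-Hochberg adjustment over 19784 genes and a threshold of 0.05. The procedure was run on simulated data with planted changes. How many changes of the size seen in the synthetase genes it recovered is not reported here. CPM were from edgeR; log2 CPM used a prior count of 2. No pair of libraries within a group agreed within sampling noise (chi-square per gene 8.81 or more). Pairs between groups were not compared in this way.

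Members and lists were chosen with earlier results of these data known. Named in every library were AARS1, WARS1, KARS1 and GARS1 and members with an unadjusted p under 0.05; AIMP1, DDIT3 and other synthetases were named after their values were seen. Library numbers were taken as pairing the libraries for CSA and TAC against DMSO and for TAC against VCS, where deviations of same-numbered libraries from their group means correlated above 0.1 in all 3 pairs (0.154, 0.103 and 0.22; 0.313, 0.108 and 0.377; 0.232, 0.248 and 0.532), and not elsewhere (lowest 0.097 for VCS against DMSO, 0.007 for CSA against TAC and 0.077 for CSA against VCS). Values printed are from the fit with group as the only term, also for these paired comparisons, unless library number is named. Alternatives were median-ratio (RLE) scaling, no filter, DESeq2 1.42.0, only the groups compared, library number as a term, and each library left out. A fit leaving out the 4 libraries numbered 3, and one with a robust estimate of spread, were chosen after seeing the data. Of 14 annotated synthetase pseudogenes none had over 4 counts in a library, and 21 of the 35 genes overlap a gene on the other strand.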

Additional observations from a re-analysis of the deposited data

How the results depend on the processing

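No synthetase gene passed the adjusted threshold in any of the 6 comparisons under any of the 19 alternatives tried for each, and named genes kept their side of it throughout. The count of all genes called was less stable; it is given here in the order CSA, TAC and VCS against DMSO, CSA against TAC, CSA against VCS, and TAC against VCS, where edgeR called 2, 7, 1, 6, 2 and 5. Without a filter on low counts it was 86, 131, 69, 87, 70 and 101, and by DESeq2 8, 35, 5, 44, 11 and 37. With library number as a block it was 6, 41, 0, 65, 6 and 41. With only the groups compared it was 1 for TAC and 0 for VCS against DMSO, 1 for CSA against TAC and 0 for TAC against VCS. Without the 4 libraries numbered 3 it was 0 for CSA and 3 for TAC against DMSO, 1 for CSA against TAC, 6 for CSA against VCS and 9 for TAC against VCS. With a robust estimate of the spread it was 0 for VCS against DMSO, 1 for CSA against VCS and 8 for TAC against VCS. Leaving out 1 library gave 0 to 2, 0 to 10, 0 to 8, 0 to 6, 0 to 7 and 0 to 12. The cause was not tested. The mitochondrial median for VCS against DMSO ran from -0.036, without VCS 2, to 0.019. All other medians of both compartments moved by less than 1 SD of the score between libraries of a group (0.109 cytosolic, 0.051 mitochondrial). They include those of CSA and TAC against VCS that changed sign. That SD exceeded every mitochondrial median in size. It also exceeded the cytosolic medians of TAC against DMSO (0.10), CSA against TAC (0.10), CSA against VCS (0.05) and TAC against VCS (-0.03). For these medians the loss of the whole value would not have counted as a move.

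The block with library number raised the cytosolic genes with an unadjusted p under 0.05 to 11 in CSA (from 8), 4 in TAC (from 0) and 10 in VCS (from 4), each against DMSO, and to 8 in CSA against TAC (from 3). The share of all genes higher at that p was 6.49% (from 2.05%), 6.38% (from 2.25%), 5.23% (from 1.53%) and 8.81% (from 4.34%). Among mitochondrial genes 2 were then higher in CSA, and 1 higher and 1 lower in each of TAC and VCS. The pairing by number rests on the data. For VCS against DMSO the correlations over all genes tested were 0.28, 0.097 and 0.428, so number 2 fell just short of 0.1. For CSA against TAC they were 0.157, 0.007 and 0.185. Over the synthetase genes alone they were 0.611, 0.468 and 0.843 for VCS against DMSO. For CSA against TAC these were 0.415, 0.108 and 0.281. The block changed no adjusted call on a synthetase gene. Other SEs and intervals are from the fit without library number. There WARS1 in CSA against DMSO had an SE of 0.144, against 0.07 with the block. The widest 95% interval in CSA against DMSO was that of PARS2, from -0.18 to 0.66.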
